A study of Mus musculus with 16 samples.

Results

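The metabotropic glutamate receptors analysed here were Grm2, Grm3, Grm4, Grm5, Grm7 and Grm8, which were taken by gene name from the expression tables of the dentate gyrus, the part of the hippocampus where granule neurons reside and new neurons are formed in adult life. They are 6 of the 24421 gene names in the tables, and all 6 were among the 17317 genes tested, those whose mean reached 0.1 TPM. The libraries came from 1-year-old male C57BL/6 mice that were either p16Ink4a +/+ (p16 WT) or p16Ink4a -/- (p16 KO) and either sedentary or given a running wheel for 12 days. Each combination had 4 libraries of 2 pooled mice, here called sedentary WT (WT CTL in the figures), sedentary KO (KO CTL), running WT (WT RUN) and running KO (KO RUN) and numbered as replicates 1 to 16, so the p-values measure the spread between pools and not between single animals. The p16 KO mice are homozygous for a null allele that leaves p19Arf functional and was made in FVB mice before it was bred into C57BL/6, according to the methods of the study. Expression is given as TPM, the share of a library's transcripts corrected for gene length, which permits levels of different genes to be compared.

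Metabotropic glutamate receptors are G protein-coupled receptors for glutamate and fall into groups that differ in signalling. Group I, here Grm5, acts through Gq and phospholipase C to release calcium and to form endocannabinoids, mostly at the postsynaptic side. Group II (Grm2 and Grm3) and group III (Grm4, Grm7 and Grm8) act through Gi/o to inhibit adenylyl cyclase and to reduce transmitter release. In the hippocampus Grm2 is a known product of granule neurons and of their mossy fibre terminals, Grm3 is found in glia as well as neurons, and Grm7 is held at the active zone of presynaptic terminals. The comparisons ask how running and the loss of p16, an inhibitor of cell cycle entry, alter the transcripts of these receptors in the aged dentate gyrus. The 5 pairwise comparisons of the study are named as Set A (running KO against sedentary KO), Set B (sedentary KO against sedentary WT), Set C (running WT against sedentary WT), Set D (running KO against sedentary WT) and Set E (running KO against running WT), and the interaction is the running difference in p16 KO minus that in p16 WT.

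The receptor genes lie on 5 chromosomes of the mm10 genome, none of them the chromosome of Cdkn2a, the targeted gene. Grm2 lies at chr9:106644534-106656109 on the minus strand and covers 11.6 kb. Grm3 lies at chr5:9485236-9725352 (minus strand, 240 kb), Grm4 at chr17:27422388-27503533 (minus strand, 81.1 kb) and Grm5 at chr7:87584168-88135063 (plus strand, 551 kb). Grm7 at chr6:110645598-111567230 (plus strand, 922 kb) and Grm8 at chr6:27275121-28134369 (minus strand, 859 kb) share a chromosome. GENCODE annotates 1 coding transcript for Grm3, 3 each for Grm2 and Grm5, 4 for Grm7 and 5 each for Grm4 and Grm8, and the values below sum whatever isoforms were expressed. An antisense gene, Gm20387, overlaps Grm7. The library kit keeps the strand, but the sources used here do not say whether StringTie was run with it.

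The sequences before the transcript starts of Grm2, Grm3 and Grm7 are shown because these receptors carry the running differences described below. They come from RefSeq (GRCm38.p6), cover the 250 bases before the start, and are written 5′ to 3′ on the strand of the gene, with every GC box (GGGCGG on either strand) in capitals. The Grm2 sequence is chr9:106656110-106656359 (minus strand), that of Grm3 is chr5:9725353-9725602 (minus strand) and that of Grm7 is chr6:110645348-110645597 (plus strand).
Grm2: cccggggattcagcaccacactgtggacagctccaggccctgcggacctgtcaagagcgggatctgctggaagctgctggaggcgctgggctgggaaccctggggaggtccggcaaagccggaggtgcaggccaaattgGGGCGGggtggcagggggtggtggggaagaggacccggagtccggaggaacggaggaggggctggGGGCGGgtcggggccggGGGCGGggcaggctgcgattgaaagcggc
Grm3: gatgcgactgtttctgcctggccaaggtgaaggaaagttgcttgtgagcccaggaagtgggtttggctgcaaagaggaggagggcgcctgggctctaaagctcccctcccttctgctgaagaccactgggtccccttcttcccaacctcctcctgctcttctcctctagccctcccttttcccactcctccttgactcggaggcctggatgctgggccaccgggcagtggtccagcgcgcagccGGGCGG
Grm7: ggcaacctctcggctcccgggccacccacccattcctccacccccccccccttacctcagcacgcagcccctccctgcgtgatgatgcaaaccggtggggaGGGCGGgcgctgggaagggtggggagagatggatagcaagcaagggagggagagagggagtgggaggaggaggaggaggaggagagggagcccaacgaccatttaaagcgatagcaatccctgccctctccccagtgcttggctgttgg

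The Grm2 sequence held 3 GC boxes, 71.2% G or C and 16 CG pairs, against a median of 52.4% and 6 CG pairs over 32851 windows of the same length. The Grm3 and Grm7 sequences held 1 GC box each, with 62.4% and 65.2% G or C. A GC box was present in 32.7% of all windows, so its presence does not set these genes apart. Neither the cyclic AMP response element TGACGTCA (1.55% of all windows) nor the EGR motif GCGGGGGCG (2.57%) nor the E-box CACGTG (6.02%), each searched on both strands, occurred in the 3 printed windows. Windows were at hand for 4 of the 6 receptors, Grm8 being the other one.

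The 3 libraries that stood apart from the rest were sedentary WT replicate 2 and sedentary KO replicates 6 and 7, in which the score of nuclear RNAs (the mean log2 level of Malat1, Neat1, Meg3 and 4 other nuclear transcripts) was 5.67 to 6.60, against 7.36 to 7.80 in the other 13 libraries. All of them were sedentary, and fits without them, an alternative chosen after seeing the data, are given beside the results. Without them 4.9% of all genes were higher and 3.59% lower in Set A at an unadjusted p under 0.05. The shares were 3.19% and 3.48% in Set B, 2.97% and 2.91% in Set C, 5.92% and 5.25% in Set D and 3.75% and 3.49% in the interaction, and counts from these fits are read against them. The coverage of the libraries relative to each other was 0.90 to 1.95 in the 8 sedentary and 0.621 to 0.893 in the 8 running libraries, so that depth separated running from sedentary in both genotypes and its part in the Set A, Set C and Set D differences cannot be told apart from running. The read counts behind single genes are not known from these tables. Cdkn2a, whose entry covers both p16 and p19Arf, was at 0 to 0.586 TPM in every library, and this level does not tell the genotypes apart. The granule neuron markers Prox1, C1ql2, Dsp, Calb1, Tdo2, Il16 and Rfx3 were detected in all groups, with a summed level of 474.5 to 1187 TPM per library.

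Over all 16 libraries Grm2 had the highest mean level with 117 TPM, followed by Grm5 with 114, Grm7 with 52.3, Grm3 with 38.5, Grm4 with 6.19 and Grm8 with 4.11 TPM. The first neighbours in this order were not separated, since Grm2 was above Grm5 in 8 of 16 libraries. These were 1 of 4 sedentary WT, 0 of 4 sedentary KO, 3 of 4 running WT and 4 of 4 running KO libraries. Grm5 was above Grm7 and Grm3 above Grm4 in every library, by 2.18-fold and 6.22-fold on average, whereas Grm7 exceeded Grm3 in 14 and Grm4 exceeded Grm8 in 15 of 16 libraries. The exceptions for Grm7 were 2 sedentary KO libraries. Summed over the 6 receptors, the level was 313 ± 40.3 TPM in sedentary WT, 288 ± 37.7 in sedentary KO, 366 ± 9.19 in running WT and 360 ± 18.8 in running KO (mean ± SD over 4 libraries). Group II receptors made up 42.3% ± 4.77 of this sum in sedentary WT, 42.5% ± 6.88 in sedentary KO, 49.8% ± 2.94 in running WT and 50.2% ± 2.96 in running KO.

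**Figure D1:**
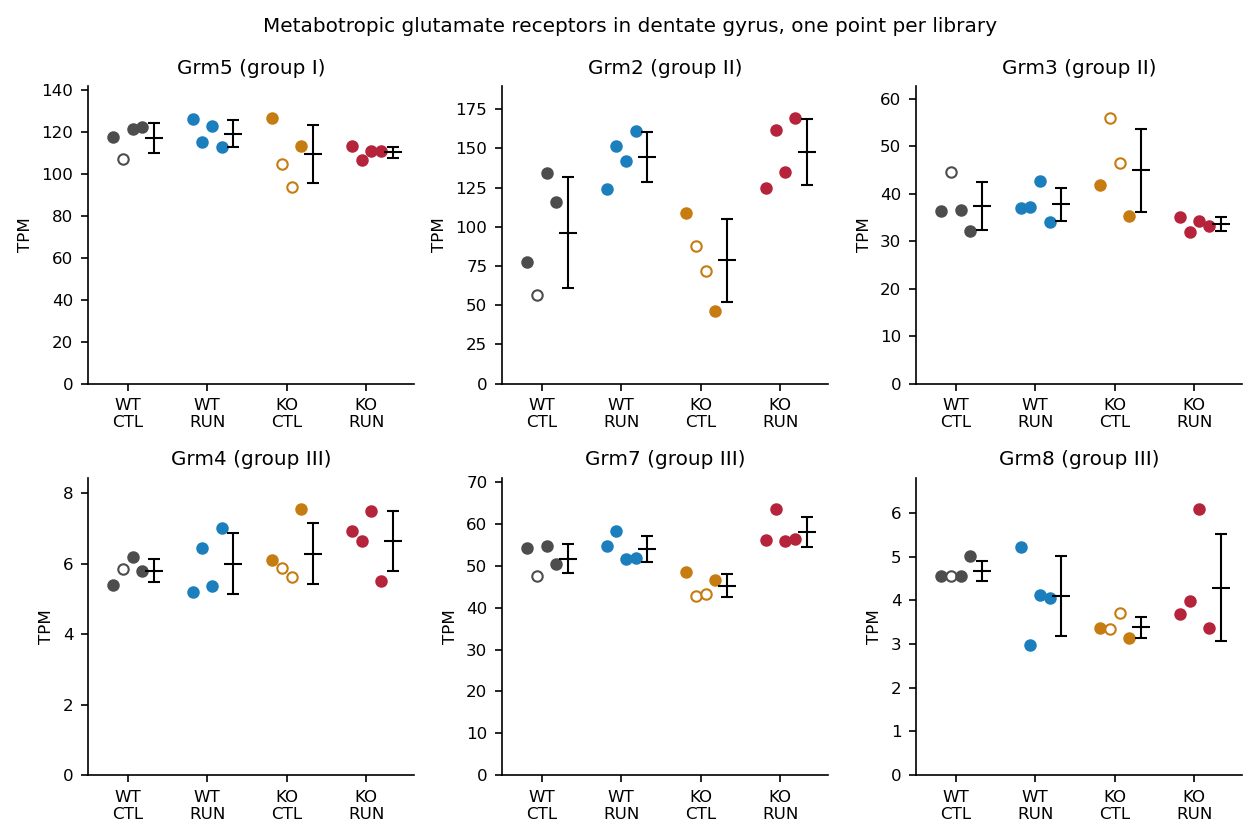
TPM (vertical axes, from 0) of each receptor in every library, by group. Points are libraries, open points are the 3 libraries low in nuclear RNA, and bars give mean ± SD over 4 libraries. Grm2 is higher in the running groups of both genotypes, whereas Grm5 varies least.

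Grm2, the group II receptor of mossy fibre terminals, was the receptor with the widest range, from 46.0 to 169.5 TPM. Its levels were 77.8, 56.6, 134.5 and 116 TPM in sedentary WT and 109, 87.5, 71.9 and 46.0 TPM in sedentary KO. They were 124, 152, 142 and 161 TPM in running WT and 125, 161.5, 135 and 169.5 TPM in running KO. All 8 running libraries were at 124 TPM or more, a level that 1 sedentary library, sedentary WT replicate 3, exceeded. The coefficient of variation was 36.9% and 33.7% in the sedentary groups and 11.0% and 14.4% in the running groups.

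In Set A Grm2 was 1.87-fold higher after running, with a log2 difference of 0.90 (SE 0.23, 95% interval 0.38 to 1.42, limma p = 0.0035, adjusted p = 0.163, exact permutation p = 0.0286), and the groups did not overlap. This exact p is the smallest that the 35 splits of 8 libraries can give. Receptors and genes are called higher or lower, or said to pass, at an unadjusted limma p under 0.05, the threshold of the study. In Set C it was 1.57-fold higher, with a log2 difference of 0.65 (SE 0.225, 95% interval 0.14 to 1.16, limma p = 0.0175, adjusted p = 0.985, exact permutation p = 0.0571), and here the groups overlapped. The call in Set C was lost without sedentary WT replicate 1 (0.57). Without the 3 libraries low in nuclear RNA the differences were 1.03 in Set A and 0.44 in Set C, and both passed. Grm2 thus passed the unadjusted threshold in both genotypes, and the difference between them was 0.25 with a 95% interval of -0.49 to 0.99 (interaction adjusted p = 0.871), which includes both a smaller and a larger response in p16 KO. In fits without the 3 libraries the interaction was 0.58 and did not pass, and the Set B difference was -0.55 and did not pass. With all libraries, in Set B Grm2 differed by -0.22 (95% interval -0.90 to 0.46, limma p = 0.485, adjusted p = 0.779, exact permutation p = 0.543) and in Set E by 0.032 (-0.24 to 0.30, limma p = 0.794, adjusted p = 1, exact permutation p = 0.771). In whole tissue, fewer cells of a type and less RNA per cell cannot be told apart.

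Granule neuron markers were given beside Grm2 because both varied among the sedentary libraries. The summed markers were 611 to 1157 TPM in sedentary WT, 474.5 to 920 in sedentary KO, 760 to 1034 in running WT and 816 to 1187 in running KO, and 0 of 7 of them passed p under 0.05 in Set A or Set C, with median log2 differences of 0.28 and 0.12. In the absence of the 3 libraries 0 of 7 passed in these sets, with medians of 0.48 and -0.053, whereas 2 of 7 were lower in Set B (median -0.68), against 3.48% of all genes in that fit, and 2 of 7 positive in the interaction (median 0.72), against 3.75%. Grm2 as a percentage of this sum was 8.99 to 11.6 in sedentary WT and 12.0 to 20.0 in running WT. It was 9.51 to 12.3 in sedentary KO and 14.3 to 19.8 in running KO. In this ratio the running libraries lay above the sedentary ones of their genotype. In p16 WT, where the groups overlapped in TPM, the gap was narrow (11.6% against 12.0%). The part of granule neurons in the Grm2 differences was not tested.

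Grm3, the other group II receptor, showed levels of 36.5, 44.5, 36.6 and 32.3 TPM in sedentary WT, 41.8, 56.0, 46.5 and 35.4 in sedentary KO, 37.1, 37.2, 42.7 and 34.1 in running WT and 35.2, 31.9, 34.3 and 33.2 in running KO. The sedentary KO group was the highest and most variable, and running KO the narrowest. In Set A Grm3 was 0.725 times as abundant after running, a log2 difference of -0.46 (SE 0.136, 95% interval -0.77 to -0.16, limma p = 0.00769, adjusted p = 0.185, exact permutation p = 0.0286), without overlap of the groups. In Set C the difference was 0.0039 (95% interval -0.26 to 0.27, adjusted p = 0.999, exact permutation p = 1). In Set B it was 0.31 (-0.067 to 0.69, limma p = 0.0954, adjusted p = 0.625, exact permutation p = 0.171), which passed the unadjusted threshold without sedentary WT replicate 2 (0.42) or sedentary KO replicate 8 (0.43) and in the joint fit of 16 libraries (0.31), but was 0.10 with the nuclear RNA score as a covariate and 0.17 without the 3 libraries low in nuclear RNA, and did not pass in either. The interaction was -0.47 (SE 0.191, 95% interval -0.87 to -0.061, limma adjusted p = 0.797) and passed the unadjusted threshold.

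The 3 libraries low in nuclear RNA held the 3 highest Grm3 levels, 44.5 to 56.0 TPM, against 32.3 to 41.8 in the 5 other sedentary libraries and 31.9 to 42.7 in the 8 running ones. Without them the Set A difference was -0.21, the Set C difference 0.11 and the interaction -0.33, of which the first and the last passed the unadjusted threshold. With the nuclear RNA score as a covariate the Set A difference was -0.22 and passed. The interaction call was lost without sedentary WT replicate 4 (-0.39), sedentary KO replicate 6 (-0.35), sedentary KO replicate 7 (-0.42) or running WT replicate 11 (-0.42). The glial markers in Set A are given beside Grm3, against the 7.74% of all genes that were lower. The sum of the astrocyte markers was 1748 to 2675 TPM in sedentary KO, 1829 to 2164 in running KO, 1728 to 2236 in sedentary WT and 1801 to 2422 in running WT, none was at 0, and 2 of 7, Gja1 and S100b, were lower in Set A with a list median of -0.29, whereas the others, Gfap (-0.022) among them, did not pass. In the interaction 0 of 7 astrocyte markers passed. Grm3 as a percentage of this sum overlapped between sedentary KO (1.74 to 2.12) and running KO (1.53 to 1.92). Oligodendrocyte markers, summed, were at 1508 to 2507 TPM in sedentary KO and 1184 to 1538 in running KO, and 4 of 7 were lower in Set A (median -0.39). Microglia markers, summed, were at 394.9 to 567.7 TPM in sedentary KO and 370.1 to 448.3 in running KO, and 2 of 6 were lower (median -0.28). In the interaction of all 16 libraries the oligodendrocyte markers were all negative (-0.67 to -0.45). Only Cnp (-0.49) passed among them, and 2.54% of all genes were lower. Without the 3 libraries 1 of 7 astrocyte, 3 of 7 oligodendrocyte and 0 of 6 microglia markers were lower in Set A, with medians of 0.002, -0.47 and -0.048, against 3.59% of all genes, and all 7 oligodendrocyte markers were negative and passed in the interaction (median -0.80), against 3.49% of all genes. The part of these cells and of the nuclear RNA in the Grm3 difference was not tested.

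The ratio of Grm2 to Grm3 in a library, which needs no scaling between libraries, was 2.13, 1.27, 3.68 and 3.6 in sedentary WT and 2.61, 1.56, 1.55 and 1.30 in sedentary KO. It was 3.35, 4.08, 3.33 and 4.73 in running WT and 3.54, 5.07, 3.93 and 5.11 in running KO. In p16 KO every running library lay above every sedentary one, and in p16 WT the groups overlapped. Grm2 was thus the predominant group II transcript in all 16 libraries.

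**Figure D2:**
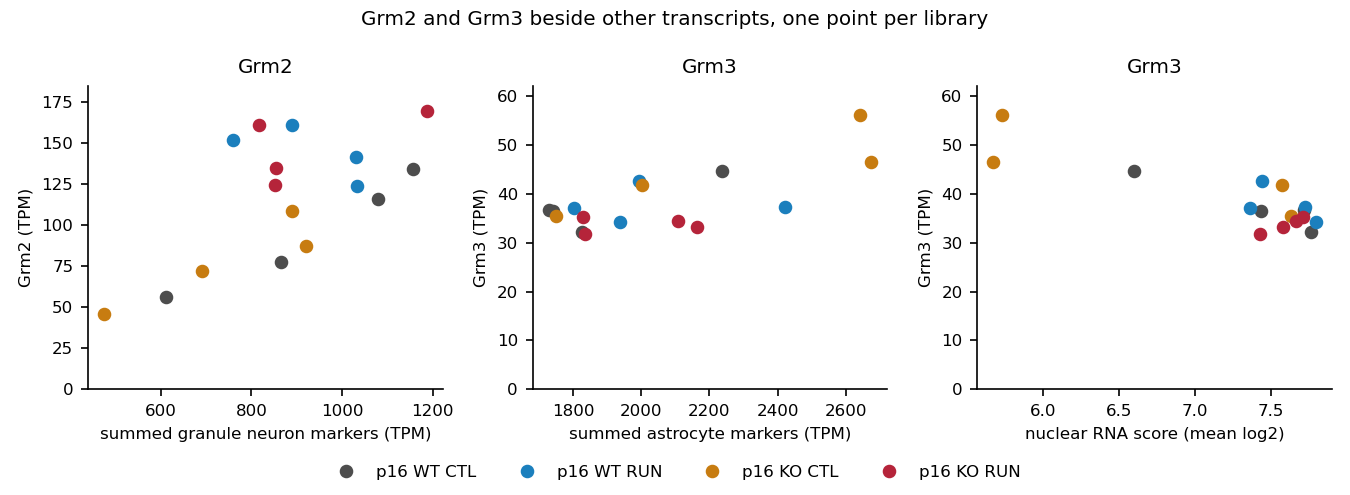
Grm2 against the summed granule neuron markers (left), and Grm3 against the summed astrocyte markers (middle) and the nuclear RNA score (right), all in TPM except the score (mean log2). Each point is a library. Relative to the marker sum Grm2 is higher in running than in sedentary libraries of a genotype, and the 3 libraries of lowest score hold the 3 highest Grm3 levels.

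Grm7, the group III receptor of the active zone, was at 54.4, 47.5, 54.7 and 50.5 TPM in sedentary WT, 48.6, 42.9, 43.2 and 46.6 in sedentary KO, 54.8, 58.3, 51.6 and 52.0 in running WT and 56.3, 63.6, 56.1 and 56.4 in running KO. Its spread within a group was small, with a coefficient of variation of 5.73% to 6.61%, and sedentary KO was the lowest and running KO the highest group. In Set A Grm7 was 1.22-fold higher after running (log2 difference 0.29, SE 0.0631, 95% interval 0.15 to 0.44, limma p = 0.0012, adjusted p = 0.131, exact permutation p = 0.0286) and the groups did not overlap. In Set C the difference was 0.053 (95% interval -0.10 to 0.20, limma p = 0.445, adjusted p = 0.986, exact permutation p = 0.457). The interaction was 0.24 (SE 0.0886, 95% interval 0.051 to 0.43, limma adjusted p = 0.797) and passed the unadjusted threshold in all 16 fits that left out 1 library, with values of 0.19 to 0.28. In fits without the 3 libraries low in nuclear RNA, where Grm7 was at 42.9 to 47.5 TPM, Set A gave 0.27 and the interaction 0.23, both past the unadjusted threshold. Markers of CA1 and CA3 pyramidal neurons, none at 0, summed to 190.7 to 326.6 TPM in sedentary WT, 229 to 470.8 in sedentary KO, 237.6 to 382.2 in running WT and 198.2 to 377 in running KO. Of 7 such markers 1 was lower in Set A (median -0.33), 1 higher in Set B (0.42) and 2 negative in the interaction (-0.30). The shares of all genes were 7.74%, 3.15% and 2.54%. The fits that leave out the 3 libraries gave 3 lower in Set A (-0.50), 3 higher in Set B (0.73) and 3 negative in the interaction (-0.61). The shares of all genes there were 3.59%, 3.19% and 3.49%. These medians were opposite in sign to Grm7, whereas those of the granule neuron markers had its sign. The latter were 0.28, -0.16 and 0.21 with all libraries, where 0 of 7 passed. Without the 3 libraries they were 0.48 (0 of 7 passed), -0.68 (2 lower) and 0.72 (2 positive). The part of these cells in the Grm7 differences was not tested.

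Grm7 was also lower in Set B, with a log2 difference of -0.13 (SE 0.0576, limma p = 0.0482, adjusted p = 0.625, exact permutation p = 0.0286). After scaling, the sedentary KO libraries were at 45.4 to 47.9 TPM and the sedentary WT libraries at 49.0 to 54.3 and did not overlap, whereas the unscaled values did. This call was close to the threshold and was lost without sedentary WT replicate 1 (-0.11), sedentary WT replicate 3 (-0.12) or any single sedentary KO library (-0.14 to -0.12), as well as without the 3 libraries low in nuclear RNA (-0.12), with the nuclear RNA score as a covariate (-0.11), and with quantile normalization, FPKM, the joint fit of 16 libraries or no variance trend (-0.13 each). In Set D Grm7 was higher by 0.16 (SE 0.0664, limma p = 0.0386, adjusted p = 0.536, exact permutation p = 0.0286), a call lost without sedentary WT replicate 2 (0.14), sedentary WT replicate 4 (0.14) or running KO replicate 14 (0.11).

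Grm8, a presynaptic group III receptor, was among the low transcripts, at 4.55, 4.55, 4.55 and 5.02 TPM in sedentary WT and 3.36, 3.33, 3.72 and 3.13 in sedentary KO. It was at 5.22, 2.99, 4.13 and 4.05 TPM in running WT and 3.70, 3.98, 6.09 and 3.38 in running KO. The sedentary genotypes were separated and narrow, whereas the running groups were wide and overlapped. In Set B Grm8 was 0.761 times as abundant in p16 KO, a log2 difference of -0.39 (SE 0.128, 95% interval -0.68 to -0.10, limma p = 0.0133, adjusted p = 0.625, exact permutation p = 0.0286), and this call held without any single library (-0.46 to -0.35). In the absence of the 3 libraries low in nuclear RNA the difference was -0.49, and with quantile normalization it was -0.30 and no longer passed. Beside this, markers of other cell types passed the unadjusted threshold as higher in Set B, 2 of 7 for interneurons (Pvalb and Vip), 2 of 4 for oligodendrocyte precursors (Olig2 and Gpr17), 2 of 7 for astrocytes, 2 of 6 for microglia and 1 of 7 each for oligodendrocytes and pyramidal neurons, against 3.15% of all genes. The interneuron markers summed to 821.8 to 1304 TPM in sedentary WT and 996.8 to 1265 in sedentary KO, and those of the precursors to 62.73 to 73.05 and 77.59 to 86.85, with none at 0. In the fit that leaves out the 3 libraries 0 interneuron, 0 precursor, 2 astrocyte, 0 microglia, 0 oligodendrocyte and 3 pyramidal neuron markers were higher, against 3.19% of all genes, and 2 of 7 granule neuron markers were lower, against 3.48%. The part of these cells in the Grm8 difference was not tested. In Set E the difference was 0.059 (95% interval -0.43 to 0.55, limma p = 0.792, adjusted p = 1, exact permutation p = 0.886), and the interaction was 0.45 (95% interval -0.089 to 1.00, adjusted p = 0.797). The interaction passed without running WT replicate 9 (0.57) or running KO replicate 16 (0.56). Running gave 0.23 in Set A (95% interval -0.21 to 0.68, limma p = 0.266, adjusted p = 0.528, exact permutation p = 0.314) and -0.22 in Set C (-0.59 to 0.15, limma p = 0.21, adjusted p = 0.985, exact permutation p = 0.2).

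Grm4, the remaining group III receptor, was at 5.39 to 6.19 TPM in sedentary WT, 5.63 to 7.55 in sedentary KO, 5.20 to 7.01 in running WT and 5.504 to 7.50 in running KO. The groups overlapped, and no comparison of all libraries passed the unadjusted threshold. Its log2 difference was 0.014 in Set A (95% interval -0.29 to 0.32, limma p = 0.919, adjusted p = 0.962, exact permutation p = 1), 0.17 in Set B (-0.11 to 0.44, limma p = 0.207, adjusted p = 0.634, exact permutation p = 0.114) and 0.026 in Set C (-0.28 to 0.33, limma p = 0.851, adjusted p = 0.996, exact permutation p = 0.857). Without the 3 libraries low in nuclear RNA these were -0.057, 0.27 and 0.053, and none passed.

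Grm5, the group I receptor, varied least over the 16 libraries with a coefficient of variation of 7.66%. It was at 117, 107, 121 and 122 TPM in sedentary WT, 126.5, 104.5, 93.65 and 112.9 in sedentary KO, 126, 114.9, 122.5 and 112.8 in running WT and 112.9, 106.3, 110.5 and 110.6 in running KO. The lowest 2 values in sedentary KO and the lowest in sedentary WT were those of the 3 libraries low in nuclear RNA. Running gave a log2 difference of -0.048 in Set A (95% interval -0.19 to 0.10, limma p = 0.473, adjusted p = 0.695, exact permutation p = 0.543) and 0.014 in Set C (-0.10 to 0.12, limma p = 0.787, adjusted p = 0.996, exact permutation p = 0.771). In fits without the 3 libraries low in nuclear RNA the Set A value was -0.14 and passed the unadjusted threshold. In Set B the difference was -0.042 (-0.20 to 0.11, limma p = 0.553, adjusted p = 0.814, exact permutation p = 0.514). In Set E Grm5 was lower in p16 KO, with a log2 difference of -0.10 (SE 0.0399, 95% interval -0.19 to -0.014, limma p = 0.0282, adjusted p = 1, exact permutation p = 0.0286), and after scaling the running KO libraries lay at 108 to 111 TPM and the running WT libraries at 112.5 to 123.1.

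**Figure D3:**
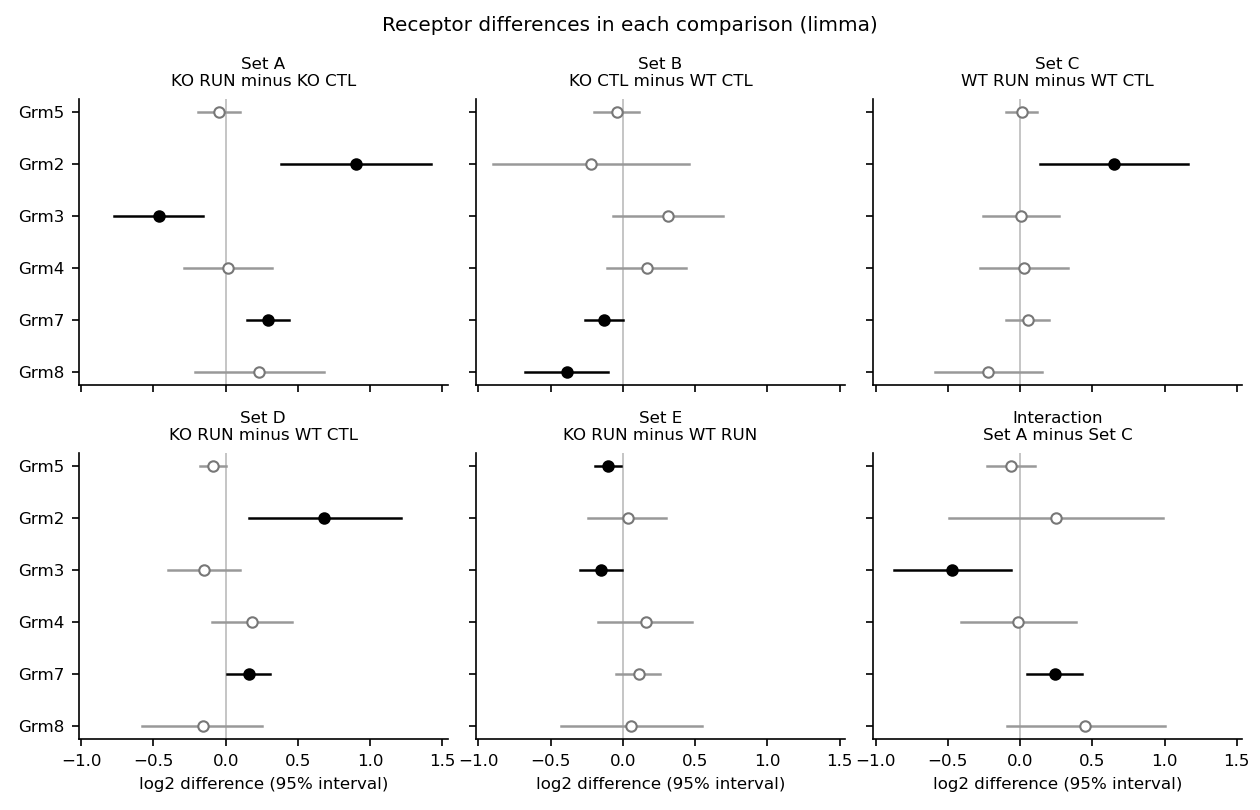
Log2 differences (horizontal axes) of the receptors in each comparison with 95% intervals from limma. Filled points passed an unadjusted p under 0.05. Grm2, Grm3 and Grm7 are filled in Set A, and only Grm2 in Set C.

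Counted over the receptors, 3 of 6 passed an unadjusted p under 0.05 in Set A, 2 higher and 1 lower, against 18.5% of all genes tested (10.7% higher and 7.74% lower). The groups did not overlap for the same 3 receptors, against 10.4% of all genes. In Set B 2 of 6 passed, both lower, against 6.69% of all genes (3.15% higher and 3.54% lower), and 2 did not overlap, against 2.7%. In Set C 1 of 6 passed, against 4.81% of all genes (2.69% higher and 2.13% lower), and 0 did not overlap, against 3.34%. With 6 receptors such counts cannot be read as a share.

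In Set D 2 of 6 passed, Grm7 and Grm2 (log2 difference 0.68, SE 0.232, limma p = 0.0167, adjusted p = 0.438, exact permutation p = 0.0571), both higher, against 8.63% of all genes (4.97% higher and 3.66% lower). Here Grm5 and Grm7 did not overlap after scaling, against 5.68% of all genes. Other receptors passed in Set D without a single library, Grm3 without sedentary WT replicate 4 (-0.23), Grm5 without sedentary WT replicate 2 (-0.11) and Grm8 without running KO replicate 15 (-0.34), and Grm4 did so without running KO replicate 16 (0.27). In Set E 2 of 6 passed, Grm5 and Grm3 (log2 difference -0.15, SE 0.0659, limma p = 0.0431, adjusted p = 1, exact permutation p = 0.0857), both lower, against 3.87% of all genes (2.11% higher and 1.76% lower), and 1 did not overlap, against 2.46%. Both Set E calls were lost without replicate 9 or 11 of the running WT libraries or without replicate 14, 15 or 16 of the running KO libraries, and that of Grm3 also without running WT replicate 10, at differences of -0.17 to -0.10 for Grm3 and -0.11 to -0.081 for Grm5. Beside these calls, 1 of 7 astrocyte markers, Aqp4 (-1.61), and 1 of 7 pyramidal neuron markers, Fibcd1 (-0.54), were lower in Set E. The medians of these lists were 0.033 and 0.021, and 4 of 7 markers were positive in each. Higher were 1 of 4 mossy cell markers, Calb2 (0.46, list median 0.019), and 1 of 4 of oligodendrocyte precursors, Gpr17 (0.43, median 0.13). So were 1 of 6 microglia markers, P2ry12 (0.22, median 0.00033), and 1 of 4 of endothelium, Pecam1 (0.26, median 0.074). The same held for 1 of 6 choroid plexus markers, Folr1 (1.63, median 0.45), and 1 of 5 of thalamus and habenula, Tcf7l2 (0.46, median 0.46). The other markers did not pass, and the part of these cells in the Grm3 and Grm5 differences was not tested. In the interaction 2 of 6 passed, 1 in each direction, against 5.48% of all genes (2.95% higher and 2.54% lower).

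After Benjamini-Hochberg adjustment over the 17317 genes, limma called none of the 6 receptors in any comparison, the smallest adjusted p being 0.131 for Grm7 in Set A. The share of all genes called in this way was 0.0173% in Set A, 0.00577% in Set E and 0% in Sets B, C and D and the interaction. The median log2 difference of the receptors was 0.12, -0.087 and 0.02 in Sets A, B and C, against 0.018, -0.011 and 0.0039 over all genes. Set A and Set B share the sedentary KO libraries, and Set B, Set C and Set D the sedentary WT libraries. Set A, Set D and Set E share the running KO libraries, and Set C and Set E the running WT libraries. The values of these sets are therefore not independent.

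The genes through which the receptors signal were described by 4 lists, none of whose genes passed after adjustment in any comparison, and the shares of all genes given above serve as their background. In the Gq arm, which serves group I, 4 of 16 genes passed in Set A, 2 higher and 2 lower, with a median log2 difference of -0.10, and 1 of 16 passed in each of Set B, Set C and the interaction, all higher, 1 in each direction in Set D and 0 in Set E. In the absence of the 3 libraries low in nuclear RNA 2 were higher and 1 lower in Set A, and 0 passed in Set B. Dagla, which makes the endocannabinoid released after group I activation, was at 104 to 129 TPM in sedentary KO and 145 to 158 in running KO, without overlap. It was higher in Set A (log2 difference 0.31, SE 0.0652, limma adjusted p = 0.126) and positive in the interaction (0.25, SE 0.106, adjusted p = 0.797). Prkce, a protein kinase C, was higher by 0.23 in Set A (SE 0.0647, adjusted p = 0.174). Without the 3 libraries Dagla (0.22) and Prkce (0.23) passed in Set A, and Dagla in the interaction (0.22).

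The Homer proteins tie group I receptors to their postsynaptic partners. Homer1 was at 47.3 to 63.8 TPM in sedentary WT and 62.5 to 78.2 in running WT, and it was higher in Set C by 0.31 (SE 0.122, limma adjusted p = 0.985), with 0.20 in Set A (adjusted p = 0.475). Homer2 was at 16.8 to 21.3 TPM in sedentary KO and at 4.57 to 14.7 in sedentary WT, 5.91 to 18.4 in running WT and 5.09 to 15.3 in running KO. It was higher in Set B by 0.85 (SE 0.346, adjusted p = 0.625) and lower in Set A with -0.78 (SE 0.316, adjusted p = 0.25), and these comparisons share the sedentary KO libraries. Each value was smaller by over 1.5 times when 1 low library was left out, with 0.45 in Set B without sedentary WT replicate 1 and -0.41 in Set A without running KO replicate 14, and both still passed. In fits without the 3 libraries Homer1 passed in Set C (0.41), and Homer2 passed in neither Set A (-0.83) nor Set B (1.06).

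In the Gi/o arm, which serves groups II and III, 6 of 26 genes passed in Set A, 3 in each direction, with a median of -0.036, whereas 0 of 26 passed in Set B. In Set C 1 was higher, in Set D 2 were higher, and 1 was lower in Set E and 2 in the interaction. In the absence of the 3 libraries low in nuclear RNA 3 were higher and 2 lower in Set A, 1 of 26, Gnai2, was higher in Set B, near the 3.19% of all genes, and 3 were negative in the interaction, against 3.49%. Kcnj6, a subunit of the potassium channel that Gi/o opens, was at 59.8 to 84.7 TPM in sedentary KO and 91.6 to 112 in running KO, and at 62.6 to 94.5 in sedentary WT and 97.3 to 111 in running WT. It did not overlap between sedentary and running libraries in either genotype and was higher in Set A by 0.51 (SE 0.0981, limma adjusted p = 0.114) and in Set C by 0.31 (SE 0.105, adjusted p = 0.985). Of the Gi subunits, Gnai2 was lower in Set A with a log2 difference of -0.25 (SE 0.069, adjusted p = 0.17), and Gnai1 with -0.31 (SE 0.102, adjusted p = 0.211). Gnai1 was also lower in Set E with -0.19 (SE 0.0805, adjusted p = 1) and negative in the interaction with -0.38 (SE 0.17, adjusted p = 0.797). Prkar1a, a regulatory subunit of protein kinase A, was negative in the interaction with -0.15 (SE 0.0615, adjusted p = 0.797), with 556 to 571 TPM in running KO and 588 to 599 in running WT. Without the 3 libraries Kcnj6 passed in Set A (0.45) and Set C (0.20), Gnai2 in Set A (-0.13), and Gnai1 (-0.56) and Prkar1a (-0.17) in the interaction.

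Among receptor partners and desensitising proteins 7 of 20 tested genes passed in Set A, 5 higher and 2 lower, with a median of 0.062, whereas 1 was lower in Set B, 1 higher in Set C, 4 higher in Set D, 0 passed in Set E and 1 in each direction in the interaction. In fits without the 3 libraries low in nuclear RNA 3 were higher and 1 lower in Set A, and in Set C 2 were higher and 1 lower, against 2.97% and 2.91% of all genes. Grasp, a scaffold protein of group I receptors, was at 90.7 to 110 TPM in sedentary KO and 121 to 146 in running KO, higher in Set A by 0.36 (SE 0.0799, limma adjusted p = 0.138). Adrbk1, a kinase that desensitises G protein-coupled receptors, was at 190 to 202 TPM in sedentary KO and 170 to 184 in running KO, lower in Set A with -0.22 (SE 0.0566, adjusted p = 0.164) and negative in the interaction with -0.16 (SE 0.0713, adjusted p = 0.797). Arrb2, an arrestin, was positive in the interaction with 0.32 (SE 0.124, adjusted p = 0.797). In the absence of the 3 libraries Grasp (0.41) and Adrbk1 (-0.15) passed in Set A and Arrb2 in the interaction (0.30), where Adrbk1 did not (-0.12).

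Pick1, which binds the tail of Grm7, was at 42.3 to 52.4 TPM in sedentary KO, 48.8 to 62.6 in sedentary WT, 52.2 to 58.4 in running WT and 51.1 to 58.0 in running KO. It was lower in Set B with -0.18 (SE 0.074, limma adjusted p = 0.625) and higher in Set A by 0.15 (SE 0.0641, adjusted p = 0.256). Elfn1 and Elfn2, postsynaptic proteins that recruit group III receptors across the synapse, had Set A differences of -0.0035 (adjusted p = 0.992) and -0.082 (adjusted p = 0.625). Shank1, a scaffold that binds Homer, was higher in Set C by 0.30 (SE 0.131, adjusted p = 0.985). Without the 3 libraries neither Pick1 (-0.14 in Set B, 0.079 in Set A) nor Shank1 (0.33 in Set C) passed.

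Of the genes that supply, take up or break down glutamate and the group II agonist N-acetylaspartylglutamate (NAAG), 4 of 21 passed in Set A, all lower, with a median of -0.038, 1 in Set B and 2 each in Set C and Set D, all of them higher, and 0 in Set E and the interaction. In fits without the 3 libraries low in nuclear RNA 0 of 21 passed in Set A, and 1 was higher in each of Set B and Set C. Slc1a3, the astrocyte glutamate transporter, was at 458 to 669 TPM in sedentary KO and 390 to 485 in running KO, and it was lower in Set A with -0.34 (SE 0.133, limma adjusted p = 0.241). Glud1, the glutamate dehydrogenase, was lower with -0.25 (SE 0.102, adjusted p = 0.255), and Slc1a2, the other astrocyte transporter, had -0.19 (adjusted p = 0.433). In the absence of the 3 libraries Slc1a3 had -0.11 and Glud1 -0.051 in Set A, and neither passed. Astrocytes express these genes, and the astrocyte markers are given beside Grm3 above. Slc38a3, a glutamine transporter, was at 46.8 to 52.4 TPM in sedentary WT, 54.8 to 58.2 in sedentary KO, 56.2 to 79.7 in running WT and 56.5 to 72.8 in running KO. It was higher in Set B by 0.23 (SE 0.0713, adjusted p = 0.625) and in Set C by 0.39 (SE 0.114, adjusted p = 0.937). Slc38a2, a related transporter, was higher in Set C by 0.14 (SE 0.0595, adjusted p = 0.985). After removal of the 3 libraries Slc38a3 passed in Set B (0.25) and Set C (0.44), and Slc38a2 did not pass in Set C (0.11).

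The vesicular transporter Slc17a7 was at 1437 to 2005 TPM over all libraries, with -0.0069 in Set C (adjusted p = 0.998) and 0.058 in Set A (adjusted p = 0.791). Folh1, which cleaves NAAG, was at 2.53 to 6.13 TPM and had -0.27 in Set A (adjusted p = 0.431). Rimkla and Rimklb, which make it, had 0.10 (adjusted p = 0.668) and 0.049 (adjusted p = 0.824).

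Each library was also left out in turn for the genes named from the lists, an alternative chosen after seeing the data. In Set A the calls of Dagla, Prkce, Kcnj6, Gnai1, Gnai2, Grasp and Adrbk1 held in all 8 fits. Those of Slc38a3 in Set B and Set C did so too, and that of Arrb2 held in all 16 fits of the interaction. In Set C Kcnj6 was lost without running WT replicate 10 (0.25), and in the interaction Prkar1a was lost without sedentary WT replicate 3 (-0.13). In Set A Homer2 passed in 5 of 8 fits (-0.92 to -0.41), Slc1a3 in 4 (-0.43 to -0.23), Pick1 in 3 (0.12 to 0.20) and Glud1 in 2 (-0.32 to -0.18), and in Set B Homer2 passed in 4 (0.45 to 1.01) and Pick1 in 2 (-0.22 to -0.14). In Set C Homer1 passed in 3 (0.23 to 0.41), Slc38a2 in 3 (0.11 to 0.18) and Shank1 in 2 of 8 fits, with 0.17 without running WT replicate 10. Gnai1 passed in 3 of 8 fits in Set E, with -0.11 without running KO replicate 16, and in the interaction Dagla passed in 9, Gnai1 in 8 and Adrbk1 in 6 of 16 fits.

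**Figure D4:**
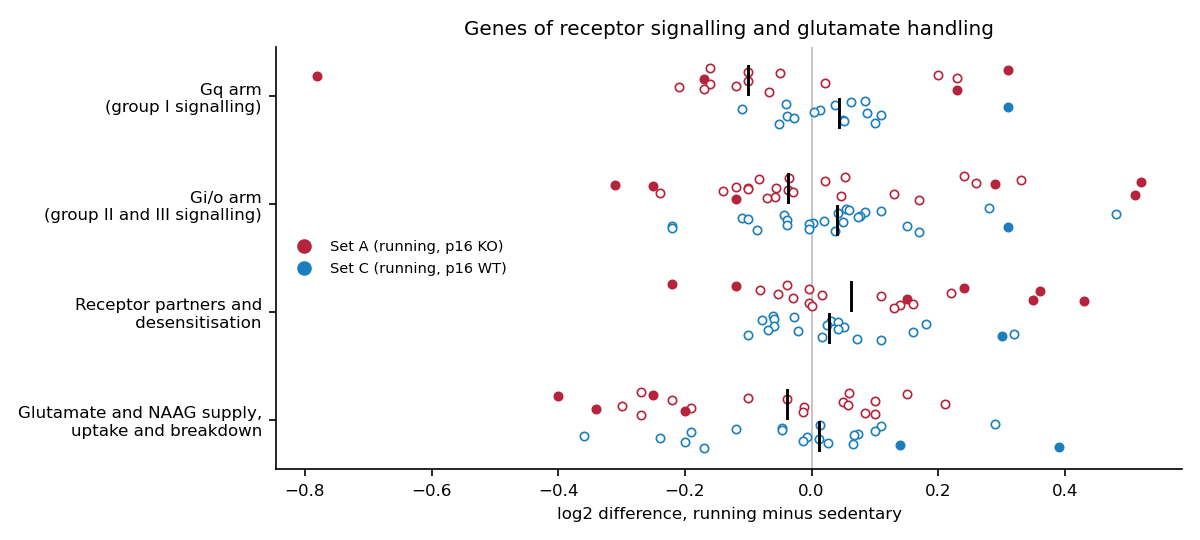
Log2 difference of running against sedentary (horizontal axis) for each gene of the 4 lists, in p16 KO (Set A) and in p16 WT (Set C). Filled points passed an unadjusted p under 0.05 and black bars are list medians. More points are filled in Set A, as over all genes, with Homer2 at -0.78 and Adcy9 at 0.52 at its ends.

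The genes most similar to each receptor over the 16 libraries were sought among the 14438 genes whose mean reached 1 TPM, by the Pearson correlation of log2 values, as a description without a test. For Grm2 they were Card6 (r = 0.968), Mamld1 (0.963) and Ptprj (0.961), and for Grm3 they were Arhgap5 (0.976), Qk (0.952) and Sfxn5 (0.944). For Grm7 they were Prkce (0.914), which is also in the Gq list, Sprn (0.906) and Pi4ka (0.902). For Grm5 they were Iars, Tmtc3 and Srsf7 (0.912, 0.912 and 0.897), for Grm4 Map2k2, Lipa and Tomm40 (0.87, 0.866 and 0.857) and for Grm8 1110034G24Rik, Tex10 and Nemf (0.801, 0.75 and 0.735). The libraries share groups, depth and the differences in nuclear RNA, and nothing about function or control is read from these values. Between receptors the values were lower, the highest being 0.606 for Grm2 with Grm7 and the lowest -0.649 for Grm3 with Grm7.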

How the data were processed

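RNA of the dentate gyrus was sequenced in 16 libraries of 2 pooled mice, grouped by the sample labels. Per the submitters' processing notes and the methods, the authors demultiplexed with bcl2fastq 2.20, masked adapters with Cutadapt 1.11, used STAR for the alignment of reads to mm10 after trimming with ERNE and StringTie for abundances. The TPM values were deposited as StringTie abundances per gene. The FPKM values were deposited from the same run and served as an alternative. The coverage values, deposited as mean depth per base, served only for relative depth. The authors tested counts with DESeq2, and such counts were not used here.

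Entries of the same name were summed (112 to 130 names per library; each receptor has 1 entry). Each library was divided by its median ratio to the average library, taken from the 13226 genes that reached 1 TPM throughout (factors 0.92 to 1.03). The limma package (3.58.1, under R 4.3.3) then tested log2(scaled TPM + 0.1) of all genes whose mean reached 0.1 TPM, using a variance trend and Benjamini-Hochberg adjustment over all genes. Fold changes are on this scale and understate changes of low genes. Each set used its 8 libraries, the interaction all 16. Exact two-sided permutation tests used 35 splits. Calls are at an unadjusted p under 0.05, the study's threshold. The procedure was tested on simulated data. Python 3.11.15, numpy 2.4.6 and pandas 2.3.3 prepared the tables.

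The receptors, the 4 pathway lists and the marker lists were chosen with earlier results of these data known. Named were all 6 receptors, the 2 genes of smallest p per list and comparison (without Set D) among those with p under 0.05, 11 fixed partner, transporter and enzyme genes, the 3 genes most like each receptor, and Cdkn2a. Adcy9, Gm20387, Gnai1 in Set A, Gnai2 in Set B and the markers are named outside this rule. Alternatives were filters, pseudocounts of 1 and 0.01, no scaling, FPKM, a joint fit of the 16 libraries, quantile normalization, a nuclear RNA covariate, a variance without trend, the highest entry per name, leaving out each library, and, chosen after seeing the data, leaving out the 3 libraries low in nuclear RNA. Read depth per gene is unknown, so no counting interval is given.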

Additional observations from a re-analysis of the deposited data

Results flagged for a closer look

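Grm7 was at 63.6 TPM in running KO replicate 14, while the other 3 libraries of that group lay at 56.1 to 56.4, a gap that passed Dixon's 95% criterion for 4 values. Grm8 was at 5.02 TPM in sedentary WT replicate 4, against 4.55 in each of the other 3 libraries, and passed it as well. Of 24 groups of values looked at, 2 passed, and chance passes about 1 in 20. The interaction passed the unadjusted threshold for Grm3 (-0.47 on the log2 scale, limma adjusted p = 0.797) and for Grm7 (0.24, adjusted p = 0.797). The Grm3 value moved with the 3 sedentary libraries low in nuclear RNA (-0.33 without them), and its call was lost without any of several single libraries, as given above.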

How the results depend on the processing

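Of 756 alternative values of the receptors' log2 differences, 665 kept their direction and side of the unadjusted threshold. In Set A 3 receptors passed under every alternative except those in which Grm5 was added. Where values moved, the cause was not tested. In Set B, 0 receptors passed with quantile normalization and 1 with FPKM, without a variance trend, with the nuclear RNA covariate or without the 3 libraries low in nuclear RNA. In the joint fit of 16 libraries 2 passed in Set B, but Grm3 in place of Grm7. In Set D 1 passed without a variance trend. In Set E 1 passed with TPM as deposited or the covariate, and 0 in the joint fit of 16 libraries or without a trend. Leaving out 1 library gave counts of 1 to 3 in Set B, 0 to 1 in Set C, 1 to 3 in Set D, 0 to 2 in Set E and 1 to 3 in the interaction.

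Values near 0 changed sign. Set A Grm4 was -0.076 with quantile normalization, -0.063 with the covariate and -0.057 without the 3 libraries, and Set A Grm5 was 0.018 with TPM as deposited. Set B Grm5 was 0.023 with the covariate and 0.029 without the 3 libraries. Set C Grm3 was -0.002 with quantile normalization, Set C Grm5 -0.005 without the 3 libraries, and the interaction of Grm4 0.04 with TPM as deposited. Leaving out 1 library gave -0.046 to 0.11 for Set A Grm4, -0.42 to 0.02 for Set B Grm2, -0.09 to 0.0082 for Set B Grm5, -0.078 to 0.11 for Set C Grm3, -0.055 to 0.10 for Set C Grm4, -0.0089 to 0.034 for Set C Grm5, -0.046 to 0.11 for Set E Grm2, -0.12 to 0.18 for Set E Grm8 and -0.081 to 0.081 for the interaction of Grm4. No paired analysis was possible because the groups share no replicate numbers. Without counts per gene, the depth behind Grm4 and Grm8 is unknown, and the count test of the study was not repeated.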
